A study of Macaca mulatta with 36 samples.

Results

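OAS1, OAS2, OAS3 and OASL, the 4 genes of the OAS family among the 14132 named genes of an Affymetrix rhesus array, were read by 11 of its 52865 probe sets. These are all the probe sets that the table of names pairs with 1 of the 4 symbols and with no other. OAS1 has 5 of these probe sets, OAS2 has 2, OAS3 has 3 and OASL has 1, and 0 probe sets with several symbols included an OAS gene. The tissue was hippocampus of male rhesus macaques, 9 with simian immunodeficiency virus encephalitis (SIVE) and 9 uninfected Control animals, with 2 arrays per animal averaged to 1 value. The SIVE animals were 4 with anti-CD8 treatment, all aged 6 years, and 5 without it, aged 2 to 5 years. The Control animals were 2 with anti-CD8 treatment, aged 3 and 4 years, and 7 without it, aged 3 to 8 years. Infected animals without encephalitis were not part of the comparison, so infection and encephalitis cannot be told apart, and the sources used here do not name the virus strain, the time since infection or the schedule of the antibody.

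The OAS genes encode 2'-5'-oligoadenylate synthetases, enzymes that bind double-stranded RNA and then join ATP into short chains of adenylates with an unusual linkage. These chains are part of the cell's defence against RNA viruses. OAS1 carries a single copy of the synthetase unit and OAS2 and OAS3 carry tandem copies, whereas OASL has no synthetase activity in humans, carries a pair of ubiquitin-like domains and there enhances signalling by the RNA sensor RIG-I. All are known as genes that interferons switch on in many cell types, including microglia, macrophages and astrocytes. SIVE is an inflammation of the brain in which infected macrophages gather around vessels, and anti-CD8 antibodies are used in macaques to deplete CD8-bearing lymphocytes. In RefSeq's T2T-MMU8v2.0 annotation of the macaque, OAS1 and OAS3 are next to each other, CFAP73 lies between OAS3 and OAS2, and OASL lies apart from them.

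The values are RMA signals on a log2 scale, so a difference of 1 is a 2-fold difference. The array medians lay between 5.59 and 5.75, and the median level of a probe set was 5.65. The 2 arrays of an animal correlated across probe sets with r of 0.977 in Control 9 and of 0.992 to 0.997 in the other animals. In 3 animals the control transcripts gave a high 3' minus 5' signal difference, a sign of shortened RNA: 1.19 in SIVE 2, 0.955 in SIVE 3 and 1.45 in Control 8, against 0.104 to 0.466 in the other 15. All 3 of these animals had anti-CD8 treatment. The levels of different probe sets depend on their probes, so only changes are compared between them.

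All 4 genes had at least 1 probe set called higher in SIVE hippocampus, although the brightest OAS1 probe set was not called (limma adjusted p = 0.0878). With limma and Benjamini-Hochberg adjustment over 52707 probe sets at 0.05, 9 of the 11 OAS probe sets were called, all of them higher in SIVE. Over all probe sets tested, 4.92% were called in either direction and 3.63% higher in SIVE. In 8 of the 11, every SIVE animal lay above every Control animal, which held for 1.2% of all probe sets, and these 8 were at least 2-fold higher, against 0.977% of all probe sets called higher by at least 2-fold. The median difference was 2.03 over the 11 probe sets and -0.04 over all probe sets. These arrays read bulk tissue, in which more cells of a type and more RNA per cell cannot be told apart.

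**Figure D1:**
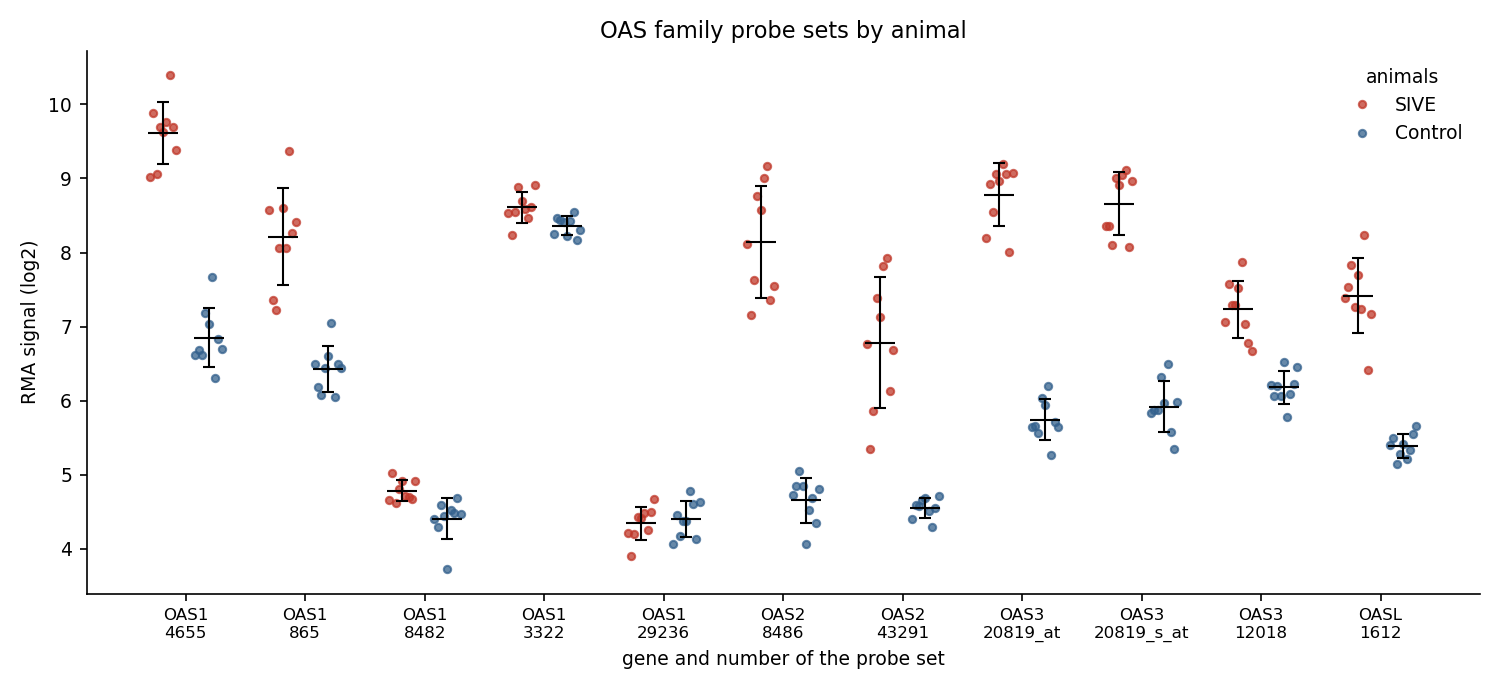
The RMA signal (log2) of each OAS family probe set is plotted by animal, SIVE in red to the left of Control in blue, with the mean and SD of each group (n = 9 each) as bars. In 8 probe sets all SIVE points lie above all Control points, and in OAS1 probe sets 8482, 3322 and 29236 the groups overlap.

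OAS1, the smallest synthetase of the family, was read differently by its 5 probe sets. Probe set MmuSTS.4655.1.S1_at had a lowest, median and highest level of 9.02, 9.69 and 10.39 in SIVE animals, against 6.30, 6.70 and 7.67 in Control animals. The groups did not overlap, with SIVE 7 highest, and Control 6, the oldest animal at 8 years, was the highest of its group. The means were 9.61 ± 0.42 in SIVE and 6.85 ± 0.40 in Control (SD, n = 9 each), a difference of 2.77 ± 0.18 (SE) or 6.8-fold (limma adjusted p = 2.56e-09). It ranked 80 among the differences of all 52707 probe sets.

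Probe set Mmu.865 of OAS1 ran from 7.22 through a median of 8.26 to 9.37 in SIVE animals, against 6.05, 6.44 and 7.05 in Control animals. Again the groups did not overlap, and the 2 SIVE animals nearest to the Control range were SIVE 3 and SIVE 2. The difference was 1.78 ± 0.22, a 3.45-fold higher level in SIVE (limma adjusted p = 2.62e-05), and it was 2.06 ± 0.18 without SIVE 2, SIVE 3 and Control 8. Those 3 animals are the ones with the high 3' minus 5' difference, and its part in the result was not tested beyond leaving them out.

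The other 3 OAS1 probe sets moved little. MmuSTS.3322.1.S1_at, the brightest OAS1 probe set over all arrays, had levels of 8.23, 8.59 and 8.91 (lowest, median, highest) in SIVE animals and of 8.17, 8.41 and 8.55 in Control animals. The groups overlapped, with 5 SIVE animals above the Control range, and the difference of 0.25 ± 0.08 did not pass (limma adjusted p = 0.0878). MmugDNA.8482.1.S1_at, a dim probe set, had levels of 4.62, 4.72 and 5.02 in SIVE animals and 3.73, 4.47 and 4.69 in Control animals. It was called higher in SIVE by 0.38 ± 0.10 (limma adjusted p = 0.0331), with 6 SIVE animals above the Control range. That call was lost when any 1 of SIVE 2, SIVE 4, SIVE 5, SIVE 9, Control 1 or Control 2 was left out (limma adjusted p of 0.0514 to 0.0659) and on the second technical replicate alone (limma adjusted p = 0.0695). A call of 3322 was gained without SIVE 2 (0.30, limma adjusted p = 0.0215), without SIVE 2, SIVE 3 and Control 8 (0.29, 0.0291), with anti-CD8 as a covariate (0.28, 0.037) and with the animal as a random block over all arrays (0.25, 0.03). MmugDNA.29236.1.S1_at, also dim, spanned 3.91 to 4.68 in SIVE and 4.07 to 4.78 in Control animals, and its difference was -0.05 ± 0.11 (limma adjusted p = 0.812).

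The choice of probe set therefore sets the size of the OAS1 change. Taking the brightest probe set for the gene gives the 0.25 of 3322, whereas the mean of all 5 probe sets per animal was 1.02 ± 0.09 higher in SIVE (limma adjusted p = 1.84e-07). For OAS2 and OAS3 the brightest probe set gave 3.49 and 2.74, and the mean over the probe sets of the gene gave 2.86 ± 0.25 and 2.28 ± 0.12.

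OAS2, a larger synthetase, held the probe set with the largest mean change of the family. In the test of pairs below, that change was not told apart from the largest change of OAS3. Probe set MmugDNA.8486.1.S1_at had levels of 7.16, 8.12 and 9.17 (lowest, median, highest) in SIVE animals, against 4.06, 4.73 and 5.05 in Control animals. More than 2 log2 units separated the lowest SIVE animal, SIVE 2, from the highest Control animal, Control 3. The means were 8.15 ± 0.75 in SIVE and 4.66 ± 0.30 in Control (SD, n = 9 each), a difference of 3.49 ± 0.25 or 11.2-fold, with a 95% interval of 7.81-fold to 16.2-fold (limma adjusted p = 1.05e-08). It ranked 40 of all probe sets. The Control levels of both OAS2 probe sets lay below the median probe set level, and whether they lay above background was not measured, so their folds may be lower bounds. The 2 arrays of Control 9 disagreed most, at 5.53 and 4.10, and both lay below every SIVE animal.

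The second OAS2 probe set, MmugDNA.43291.1.S1_at, had levels of 5.35, 6.77 and 7.92 in SIVE animals and of 4.30, 4.58 and 4.71 in Control animals. The Control animals spanned 0.41 and the SIVE animals 2.57, the widest SIVE range of the 11 probe sets, with SIVE 2 and SIVE 3 lowest and SIVE 7 and SIVE 6 highest. The difference was 2.23 ± 0.27, or 4.7-fold (limma adjusted p = 2.03e-05), and it was 2.57 ± 0.21 without SIVE 2, SIVE 3 and Control 8.

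OAS3, the synthetase with the most tandem units, was read by a pair of probe sets of 1 named target, MmugDNA.20819.1.S1_at and its partner with the ending S1_s_at, and by MmugDNA.12018.1.S1_at. The first had levels of 8.01, 8.96 and 9.20 (lowest, median, highest) in SIVE animals, against 5.27, 5.66 and 6.20 in Control animals. Its difference of 3.04 ± 0.16, or 8.21-fold, had the smallest adjusted p of the family (limma, 1e-10). The partner had 8.08, 8.91 and 9.12 in SIVE animals, against 5.35, 5.87 and 6.49 in Control animals, a difference of 2.74 ± 0.17 or 6.7-fold (limma adjusted p = 1.39e-09). SIVE 8 was lowest in both, and the groups stood far apart.

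OAS3 probe set 12018 changed less, with levels of 6.67, 7.29 and 7.87 in SIVE animals and 5.78, 6.20 and 6.52 in Control animals. The groups did not overlap, and SIVE 9, the lowest SIVE animal, lay just above Control 5. Its difference was 1.05 ± 0.14, or 2.08-fold (limma adjusted p = 5.53e-05).

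OASL, the member without synthetase activity, was read by MmuSTS.1612.1.S1_at alone. Its levels were 6.41, 7.39 and 8.23 (lowest, median, highest) in SIVE animals, against 5.15, 5.40 and 5.66 in Control animals. SIVE 8 was lowest and SIVE 7 highest, and the Control animals kept within 0.51 of each other. The means of 7.42 ± 0.51 in SIVE and 5.39 ± 0.16 in Control (SD, n = 9 each) differed by 2.03 ± 0.17, or 4.08-fold (limma adjusted p = 8.11e-08). The Control mean of OASL also lay below the median probe set level. Its fold may therefore be a lower bound, and its change understated against those of probe sets with higher Control levels. The 2 OAS2 probe sets had lower Control means (4.66 and 4.55), so that does not hold against them.

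The sizes of these changes were set against each other by an exact two-sided permutation test of the per-animal difference between 2 probe sets, over all 48620 regroupings of the animals and with adjustment over 55 pairs. The changes differed in 47 pairs, 34 of 41 between genes and 13 of 14 within a gene. The smallest p this test can give is 4.11e-05.

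In order of change, OAS2 8486 (3.49) and OAS3 20819_at (3.04) did not differ beyond their spread (0.45 ± 0.27, permutation adjusted p = 0.119). OAS3 20819_at and OAS1 4655 (2.77) did not either (0.27 ± 0.15, permutation adjusted p = 0.102), nor did OAS1 4655 and OAS3 20819_s_at (0.02 ± 0.16, permutation adjusted p = 0.892). OAS2 8486 rose more than OAS1 4655, by 0.72 ± 0.30 (permutation adjusted p = 0.0366), and more than OASL, by 1.46 ± 0.27 (permutation adjusted p = 0.000312). OAS1 4655 and OAS3 20819_at also rose more than OASL, by 0.74 ± 0.25 and 1.01 ± 0.20 (permutation adjusted p = 0.0128 and 0.000548). OAS3 20819_at and 20819_s_at rose more than OAS2 43291, by 0.81 ± 0.27 and 0.51 ± 0.22 (permutation adjusted p = 0.00369 and 0.0344). The changes of OAS2 43291, OASL and OAS1 865 were not told apart, with neighbouring differences of 0.20 ± 0.31 and 0.25 ± 0.28 (permutation adjusted p = 0.538 and 0.424).

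Probe sets of 1 gene also disagreed in the size of their change. OAS1 4655 rose by 0.98 ± 0.21 more than OAS1 865 (permutation adjusted p = 0.000377) and by 2.52 ± 0.22 more than the change of OAS1 3322 (permutation adjusted p = 9.05e-05). OAS2 8486 rose by 1.26 ± 0.15 more than OAS2 43291, and OAS3 20819_at by 1.98 ± 0.20 more than OAS3 12018 (permutation adjusted p = 9.05e-05 for each). Even the OAS3 pair of 1 target differed, by 0.29 ± 0.11 (permutation adjusted p = 0.0192). The pair not told apart was OAS1 8482 and 3322 (0.13 ± 0.12, permutation adjusted p = 0.354).

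**Figure D2:**
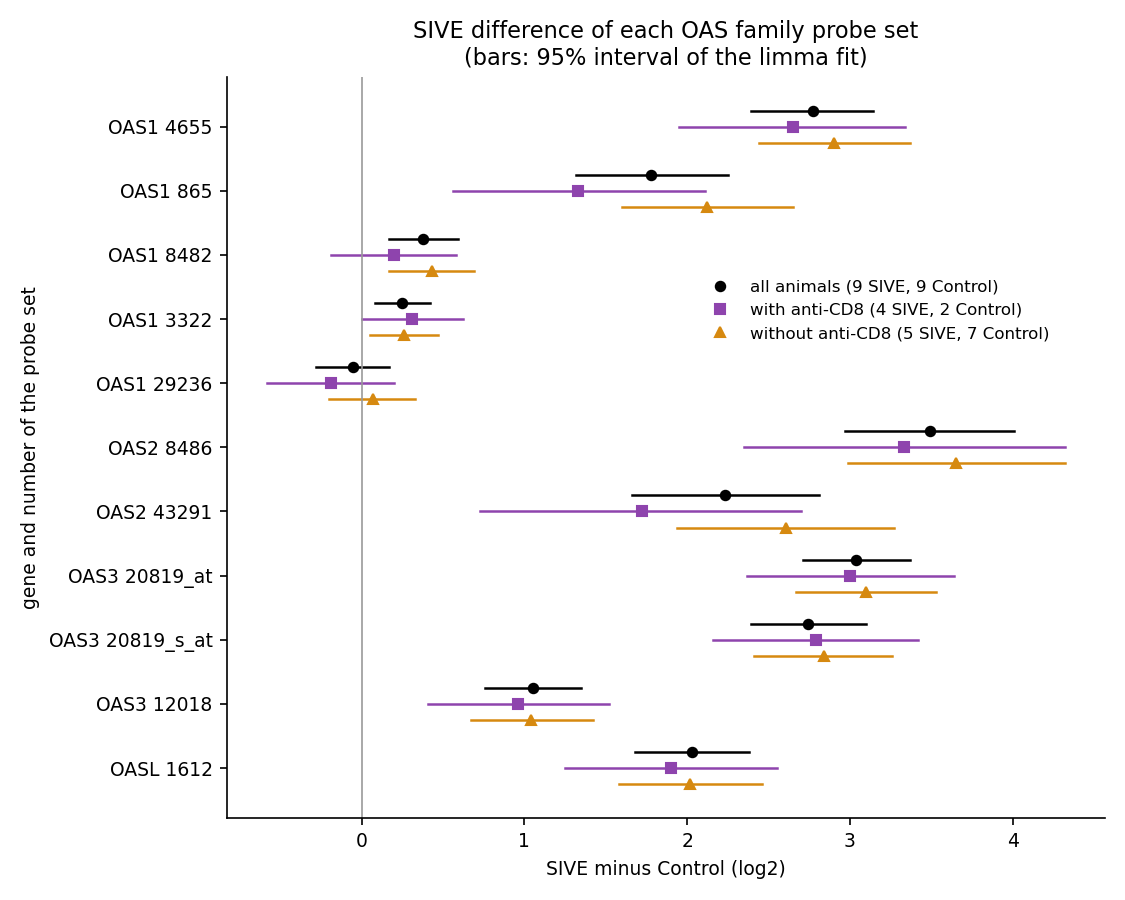
The difference in mean RMA signal (log2), SIVE minus Control, is plotted for each OAS family probe set with the 95% interval of the limma fit, for all animals (black), animals with anti-CD8 (purple) and animals without it (orange). OAS2 8486 stands highest at 3.49, OAS1 29236 lies at -0.05, and the intervals with and without anti-CD8 overlap for every probe set.

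The anti-CD8 label was spread unevenly over the groups, so the SIVE difference was also taken within each label. Treated SIVE animals were all aged 6 years and treated Control animals 3 and 4, so disease and age cannot be told apart there. A fit with age as a covariate separates them only by assuming the same age slope for all animals. Among animals with anti-CD8 (4 SIVE, 2 Control), 5 of the 11 probe sets were called higher, against 1.05% of all probe sets called in either direction. They were OAS1 4655 (2.65 ± 0.33), OAS2 8486 (3.33 ± 0.47), both OAS3 20819 probe sets (3.00 ± 0.30 and 2.79 ± 0.30) and OASL (1.90 ± 0.31), with limma adjusted p between 2.08e-05 and 0.00337. OAS1 865 (1.33 ± 0.37), OAS2 43291 (1.72 ± 0.47) and OAS3 12018 (0.96 ± 0.26) did not pass there (limma adjusted p of 0.0976 to 0.0994). The call of OASL was lost without SIVE 2, SIVE 3 and Control 8 (1.67 ± 0.45, limma adjusted p = 0.128, with a lone Control animal assumed to vary like the others) and with age as a covariate (1.78, limma adjusted p = 0.0525), a fit that in turn called OAS3 12018 (1.32, limma adjusted p = 0.0452).

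Among animals without anti-CD8 (5 SIVE, 7 Control), 8 of the 11 were called higher, against 3.13% of all probe sets called in either direction. Their differences were 3.65 ± 0.31 for OAS2 8486, 3.10 ± 0.20 for OAS3 20819_at, 2.90 ± 0.22 for OAS1 4655, 2.61 ± 0.32 for OAS2 43291, 2.12 ± 0.25 for OAS1 865, 2.02 ± 0.21 for OASL and 1.04 ± 0.18 for OAS3 12018, besides 2.84 ± 0.20 for OAS3 20819_s_at. The highest limma adjusted p among these 8 was 0.00195. None of these animals had the high 3' minus 5' difference.

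The difference between the 2 SIVE effects, with minus without anti-CD8, was called for 0 of the 11 probe sets and 0% of all probe sets (limma adjusted p of 1 for each, and 0 of 11 at an unadjusted p under 0.05). It lay between -0.89 and 0.05, with 95% intervals as wide as -2.08 to 0.30 for OAS2 43291, so moderate differences in either direction were not detectable with 2 treated Control animals. For OAS3 20819_at the interval was -0.86 to 0.67.

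Treated and untreated SIVE animals overlapped in all the probe sets that carry the family's response. OAS1 865 had levels of 8.58, 7.36, 7.22 and 8.06 in SIVE animals 1 to 4, which had anti-CD8, against 8.60, 8.06, 9.37, 8.26 and 8.41 in SIVE animals 5 to 9, which did not. The lowest of them, SIVE 2 and SIVE 3, are the treated animals with the high 3' minus 5' difference. They were also the lowest in OAS2 43291, with 6.77, 5.35, 5.86 and 7.39 in the treated animals and 7.13, 7.82, 7.92, 6.13 and 6.69 in the untreated ones.

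The difference between treated and untreated SIVE animals was -0.73 ± 0.28 for OAS1 865 and -0.79 ± 0.36 for OAS2 43291, and 0 of the 11 probe sets were called (limma adjusted p of 0.305 or more, 2 of 11 at an unadjusted p under 0.05, against 0.0019% of all probe sets called). Without SIVE 2, SIVE 3 and Control 8 these 2 differences were -0.22 ± 0.31 and -0.05 ± 0.36, with only SIVE 1 and SIVE 4 left as treated SIVE animals. For the other 9 probe sets the difference ran from -0.42 to 0.15. All treated SIVE animals were aged 6 years and all untreated ones 2 to 5, so anti-CD8 and age cannot be told apart here. Between treated and untreated Control animals 0 of the 11 were called (limma adjusted p of 0.468 or more, 0 of 11 at an unadjusted p under 0.05).

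In the 8 probe sets whose groups did not overlap, SIVE animals of either label must average above Control animals of either label, so that order is no separate result. In OAS1 4655 the means were 9.41 ± 0.44 in SIVE with anti-CD8 (n = 4), 9.77 ± 0.37 in SIVE without it (n = 5), 6.77 ± 0.10 in Control with it (n = 2) and 6.87 ± 0.46 in Control without it (n = 7, SD). In OAS2 8486 they were 7.92 ± 0.68, 8.33 ± 0.83, 4.58 ± 0.33 and 4.68 ± 0.32 in the same order. Treated and untreated animals of 1 disease state, the neighbours in the order of these levels, did not differ beyond their spread.

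**Figure D3:**
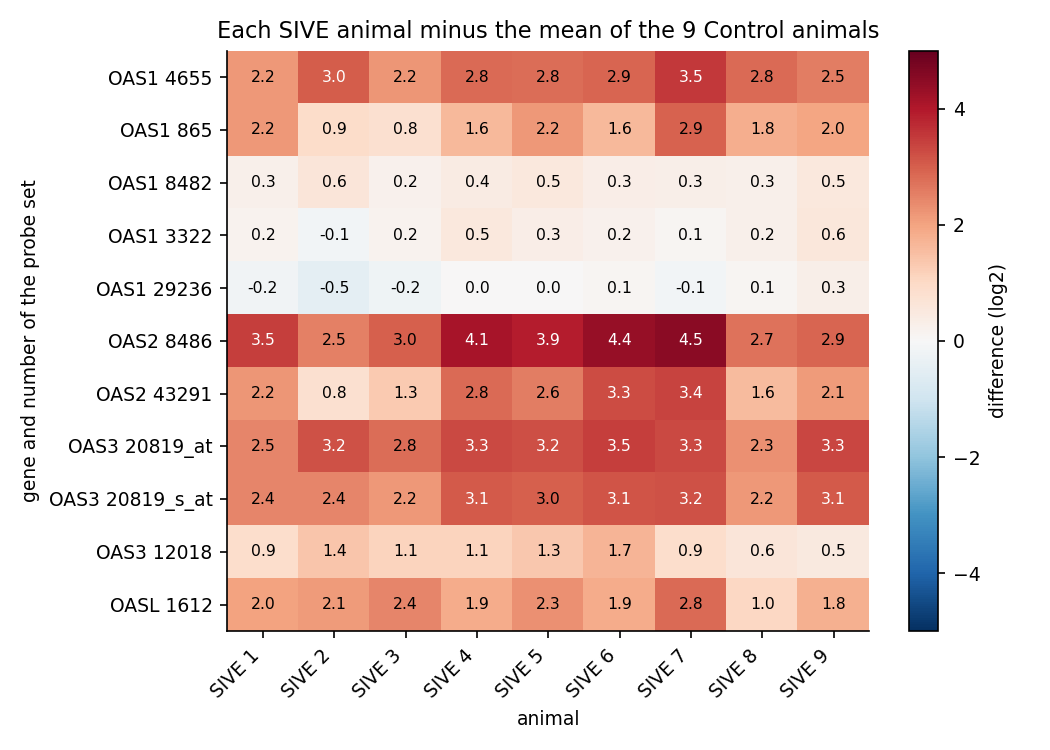
The map shows, for each OAS family probe set (rows) and each SIVE animal (columns), its RMA signal minus the mean of the 9 Control animals (log2, colour and number). SIVE 7 is highest in 6 of the rows, SIVE 2 is second highest in OAS1 4655 and lowest in both OAS2 rows, and SIVE 8 is lowest in both OAS3 20819 rows and in OASL.

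The SIVE animals did not keep 1 order across the family. SIVE 7 was highest in OAS1 865 and 4655, both OAS2 probe sets, OAS3 20819_s_at and OASL, yet it ranked low in OAS3 12018 at 7.04. SIVE 2 had the second highest OAS1 4655 level (9.88) and the lowest level in both OAS2 probe sets. SIVE 8 was lowest in OASL (6.41) and in OAS3 20819_at (8.01) and stood at the SIVE median in OAS1 4655 (9.69).

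Each gene was then taken at its probe set with the highest mean in SIVE animals (OAS1 4655, OAS2 8486, OAS3 20819_at, OASL 1612) and related to the others over the 9 SIVE animals. Over the 6 pairs of genes, Pearson's r was between 0.23 and 0.52 and Spearman's rho between -0.10 and 0.53, and none passed (exact permutation adjusted p of 0.311 to 0.56 for r, 0 of 6 at an unadjusted p under 0.05). OAS2 and OAS3 had the highest r at 0.52 (exact permutation p = 0.158, rho 0.53), and it was 0.64 without SIVE 2 and SIVE 7. Without SIVE 2 and SIVE 3 (n = 7), r was between 0.44 and 0.75, highest for OAS2 and OASL (exact permutation p = 0.0403, adjusted 0.242), and none passed after adjustment.

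Probe sets of 1 gene were related in the same way, over 14 pairs. The 2 OAS2 probe sets ordered the animals nearly alike, with r of 0.95 and rho of 0.95 (exact permutation p = 0.000135, adjusted 0.00189), and r was 0.92 without SIVE 2 and SIVE 7. The OAS3 20819 pair, which has 1 named target, gave r of 0.84 and rho of 0.83 (exact permutation p = 0.0036, adjusted 0.0208, and 0.0579 for rho), and r was 0.89 without SIVE 1 and SIVE 8. Whether these 2 probe sets share probes was not checked. Without SIVE 2 and SIVE 3 (n = 7), r was 0.97 for the OAS2 pair and 0.99 for the OAS3 20819 pair (exact permutation adjusted p = 0.00556 and 0.0333).

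The 2 OAS1 probe sets with large changes, 865 and 4655, were less alike, with r of 0.42 and rho of 0.07 (exact permutation p = 0.252, adjusted 0.707), and r was -0.71 without SIVE 3 and SIVE 7 (exact permutation p = 0.0911) and 0.48 without SIVE 2 and SIVE 3 (exact permutation p = 0.258). OAS1 29236 and 3322, which barely changed, gave r of 0.86 and rho of 0.80 (exact permutation p = 0.00446, adjusted 0.0208; 0.0645 for rho). That relation rests on SIVE 2 and SIVE 9, without which r was 0.52 (exact permutation p = 0.233). OAS3 12018 was not called with either 20819 probe set (r of 0.45 and 0.19, exact permutation adjusted p = 0.707 and 0.859).

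**Figure D4:**
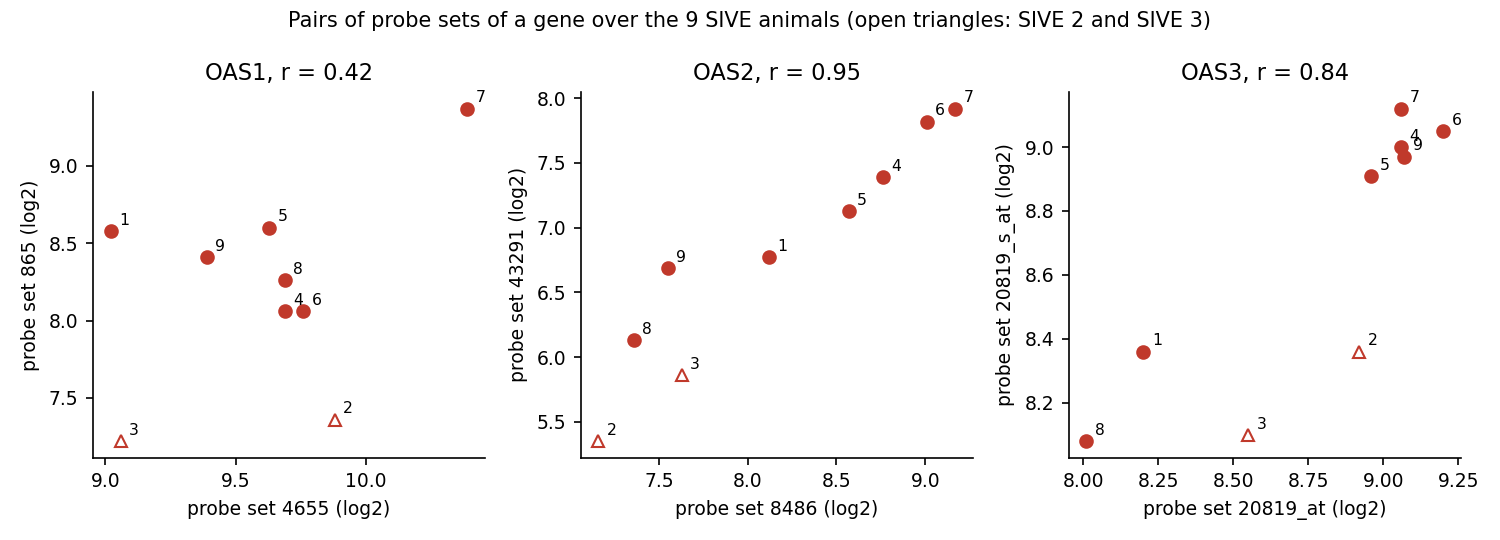
The RMA signals (log2) of 2 probe sets of OAS1, of OAS2 and of OAS3 are plotted against each other over the 9 SIVE animals, numbered by replicate, with SIVE 2 and SIVE 3 as open triangles. The OAS2 and OAS3 points follow a line (r of 0.95 and 0.84), and in OAS1 (r of 0.42) SIVE 2 lies high on probe set 4655 and low on probe set 865.

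The amount of viral RNA was read by 9 probe sets for the numbered coding sequences of 1 sequence record, taken here as virus probe sets although the table of names gives no organism for them. Their mean lay between 5.23 in SIVE 6 and 7.30 in SIVE 7, against 3.90 to 4.27 in Control animals. Over the 9 SIVE animals a relation with this mean was called for 0 of the 11 OAS probe sets (exact permutation adjusted p of 0.576 to 0.971 for r, 0 of 11 at an unadjusted p under 0.05). Even an r of -0.67 did not reach an unadjusted p of 0.05 with 9 animals, so moderate relations were not detectable. OAS3 12018 had the strongest relation, with r of -0.67 and rho of -0.63 (exact permutation p = 0.0524, adjusted 0.576), and r was -0.56 without SIVE 6 and SIVE 7. OAS1 865 gave r of 0.51 and rho of 0.43 (exact permutation p = 0.157, adjusted 0.76), and r was 0.24 without the same 2 animals. SIVE 6 had the lowest mean viral signal with an OAS2 8486 level of 9.01, second only to SIVE 7, which had the highest mean viral signal. By the brightest virus probe set SIVE 9 was highest (11.22, against 11.19 in SIVE 7), with an OAS2 8486 level of 7.55. With that probe set OAS1 4655 gave r of 0.39 (exact permutation adjusted p = 0.824), and 0.83 without SIVE 6 and SIVE 9 (exact permutation p = 0.0185, unadjusted).

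The genes whose levels followed each OAS gene most closely over the 9 SIVE animals were sought among 1019 named genes past the threshold, as a description without a test. All values share the same arrays and animals. Among 1019 candidates over 9 animals some high r can arise by chance, and this was not tested. OAS3 20819_at was closest to IFI44, an interferon-induced gene, with r of 0.967, and to IFIH1, a double-stranded RNA sensor, with 0.956, followed by DOCK11 (0.902), CBFB (0.9) and CARINH (0.893). OASL was closest to CCL4L1, a chemokine gene, with 0.937, followed by TTC3 (0.921), CYP4F22 (0.917), EPSTI1 (0.909) and HACD4 (0.899), and TTC3 and CYP4F22 were lower in SIVE.

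OAS2 8486 was closest to ZNF22 (0.872), then to STAT2, a transcription factor of the type I interferon response, with 0.82, to ABO (0.818), to the proteasome subunit gene PSMA3 (0.805) and to PARP14 (0.801). OAS1 4655 was closest to BTC (0.842), LOC695158 (0.833), XBP1 (0.823), LOC715767 (0.813) and AFAP1L2 (0.811). No gene stood in the leading 5 of more than 1 OAS gene.

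The genes around the OAS enzymes were described by 3 lists, each gene at its brightest probe set. Over all 14132 named genes, 5.72% were called higher and 1.51% lower in SIVE, with a median difference of -0.02.

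The sensing list held 16 symbols, older names of 3 genes included, of which 11 were measured. In SIVE 6 were called higher and 0 lower, with a median difference of 0.53. IFIH1 rose by 4.07 ± 0.17, or 16.8-fold, and RIGI, the sensor of RNA ends, by 2.60 ± 0.32, or 6.06-fold (limma adjusted p = 7e-12 and 2.05e-05). ZBP1, a sensor of Z-form nucleic acids, rose by 1.11 ± 0.17, STING1, the adaptor of DNA sensing, by 0.98 ± 0.14, CGAS, the DNA sensor whose structure resembles that of the OAS enzymes, by 0.96 ± 0.17, and TLR3, the endosomal receptor, read by a dim probe set, by 0.53 ± 0.11 (limma adjusted p of 0.000173 to 0.00693). Dimmer probe sets of ZBP1 (0.21 ± 0.10, limma adjusted p = 0.228) and CGAS (0.04 ± 0.04, limma adjusted p = 0.595) were not called. DHX58 (-0.22 ± 0.08), MAVS (-0.29 ± 0.19), TICAM1 (0.07 ± 0.06), PRKRA (-0.01 ± 0.20) and TARBP2 (-0.02 ± 0.07) did not pass.

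Of the list of interferon receptor and signalling genes, 9 of 16 were measured, 4 were called higher and 0 lower, with a median difference of 0.68. IRF1 rose by 2.14 ± 0.19, or 4.41-fold, IRF7 by 1.61 ± 0.21, the receptor chain IFNAR2 by 1.21 ± 0.16 and STAT2 by 0.95 ± 0.14 (limma adjusted p of 2.63e-07 to 0.000127). A dimmer probe set of IRF7 differed by -0.10 ± 0.11 and one of IFNAR2 by -0.04 ± 0.05. Probe sets of these genes, like those of ZBP1 and CGAS, thus disagreed as well. In these genes the dimmer probe set was not called, whereas in OAS1 the brightest one was not called. JAK2 did not pass at its brightest probe set (0.68 ± 0.21, limma adjusted p = 0.069) and was called higher by another (0.64 ± 0.16, limma adjusted p = 0.0189). TYK2, IRF3, SOCS1 and SOCS3 did not pass.

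Of the interferons, 5 of 21 listed genes were measured and 0 were called in either direction by limma (1 of 5 at an unadjusted p under 0.05), with a median difference of -0.04. IFNB1 had 3.71 ± 0.14 in SIVE and 3.72 ± 0.11 in Control animals, and IFNG 3.41 ± 0.10 and 3.44 ± 0.12 (SD, n = 9 each). All 5 averaged below the median probe set level of 5.65 in both groups. Whether these signals lay above background was not measured.

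**Figure D5:**
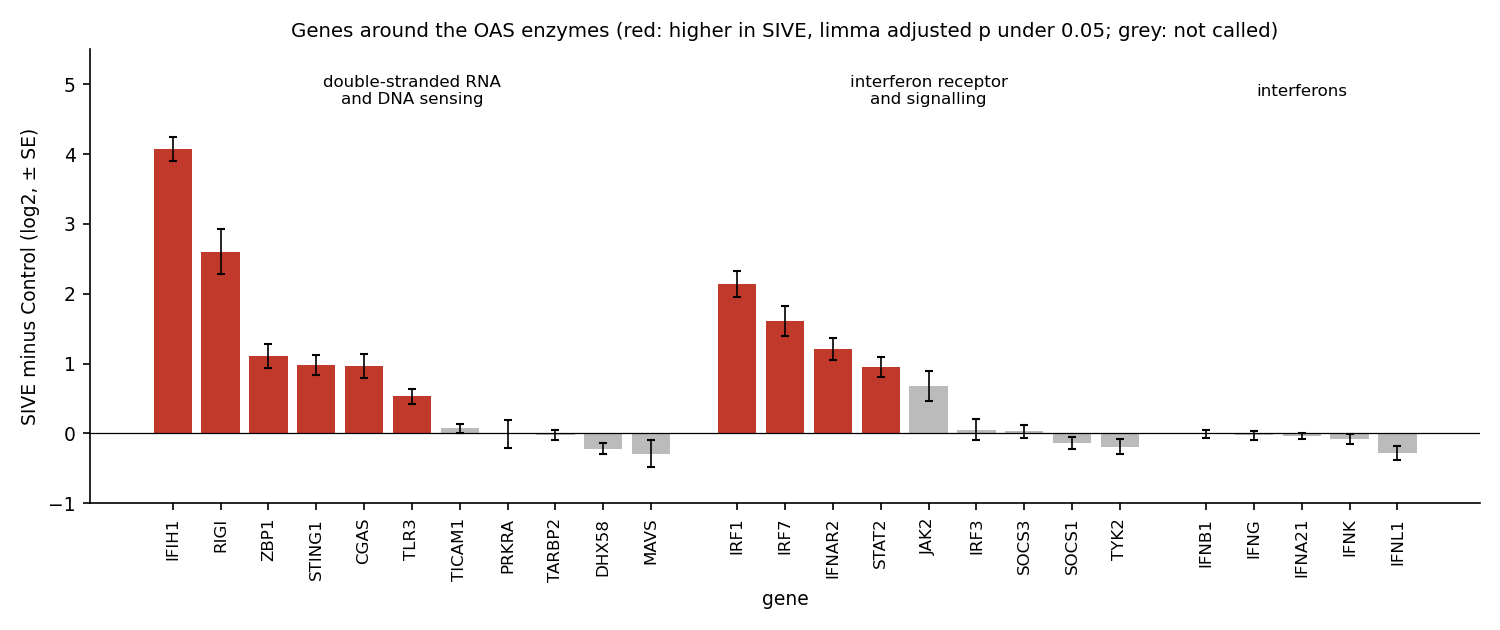
Bars show the difference in mean RMA signal (log2, SIVE minus Control, with the SE) for the measured genes of 3 lists, in red where limma called the gene higher in SIVE and in grey where it did not. The 6 red sensing genes run from IFIH1 at 4.07 to TLR3 at 0.53, the 4 red signalling genes from IRF1 at 2.14 to STAT2 at 0.95, and the interferons show grey bars.

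Markers of several cell types were measured beside the OAS genes, and their part in the OAS differences was not tested. Their counts stand against 5.72% of all named genes called higher and 1.51% called lower in SIVE. Of 8 macrophage markers 6 were measured and 3 were called higher in SIVE (LYZ by 2.71 ± 0.30, VSIG4 by 2.39 ± 0.26, CD14 by 1.18 ± 0.22), and the summed level of the 6 was 47.09 to 49.67 in SIVE and 40.89 to 44.10 in Control animals. MRC1, MSR1 and CD68 were not called at their brightest probe sets, and a dimmer CD68 probe set was higher by 1.14 ± 0.16 (limma adjusted p = 9.58e-05). Of 6 homeostatic microglia markers 5 were measured and 0 were called (0 of 5 at an unadjusted p under 0.05), with sums of 32.83 to 39.12 in SIVE and 33.64 to 38.73 in Control animals.

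Of the B and plasma cell markers 1 of 4 measured was called higher (JCHAIN by 2.81 ± 0.41), with sums of 19.98 to 25.57 in SIVE and 19.40 to 20.41 in Control animals. MS4A1 (0.36), CD79A (-0.19) and MZB1 (0.14) did not pass at their brightest probe sets. Of the 6 endothelial markers 3 were called higher (PECAM1, CDH5, VWF), with sums of 38.77 to 43.98 in SIVE and 37.16 to 41.95 in Control animals. CLDN5 (0.11), FLT1 (-0.03) and KDR (-0.13) did not pass. The 2 measured T cell markers, CD8A and CD8B, were not called (0 of 2 at an unadjusted p under 0.05), nor were the 3 dentate granule and pyramidal cell markers or the 3 choroid plexus markers (0 of 3 in each). Of the 4 astrocyte markers measured 1 was called higher (GFAP by 0.36 ± 0.08) and 1 lower (SLC1A2 by a log2 difference of -0.52), while SLC1A3 (0.12) and ALDH1L1 (-0.20) did not pass. Of the 3 neuronal markers 1 was called lower (TUBB3, -0.51), while ENO2 (0.16) and SYT1 (-0.06) did not pass, and the 3 other TUBB3 probe sets, at -0.14 to -0.49, did not pass either. Of the 2 oligodendrocyte markers MBP was called lower by both of its probe sets (-0.32 and -0.52), and CNP (0.06) did not pass.

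Other marker genes were read differently by their probe sets. Second probe sets of JCHAIN (0.07, limma adjusted p = 0.343), GFAP (-0.01, 0.957), VWF (-0.02, 0.898) and CDH5 (0.11, 0.376) were not called, whereas a dimmer one of MS4A1, a B cell marker, was called higher (0.25, 0.0254). The neuronal marker SYT1 averaged 12.15 in SIVE and 12.21 in Control animals, and the granule cell marker PROX1 8.44 in SIVE and 8.62 in Control animals.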

How the data were processed

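The deposited table holds log2 signals (the scale follows from their range) that the authors made with RMA, per the submitters' processing notes; no version of RMA is given in the sources used. The sources do not say whether an animal's 2 arrays read separate tissue pieces, and they were averaged. Left out were 158 control and reporter probe sets. The other 52707 were tested by two-sided limma fits (3.58.1, R 4.3.3; lmFit and eBayes, Benjamini-Hochberg, threshold 0.05), first over 18 animals by group, then with separate means for treated and untreated animals of either group. Pairs and relations used exact permutation tests in Python 3.11.15 with numpy 2.4.6, scipy 1.17.1 and pandas 2.3.3 (figures: matplotlib 3.10.9). The fit was checked on simulated data.

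All OAS probe sets, all list genes and, per OAS gene, the 5 genes with the highest r were named by rule. The OAS genes, lists, tests and alternatives were chosen with earlier results of these data known, and the relations within a gene, the DTX1 values and the second probe sets of list genes after values were seen. No block was used, because the replicate numbers are not stated to pair animals. In a check, animals with the same replicate number did not deviate together (correlations of -0.488 to 0.0888, 0 of 9 best with their own number). Scan dates and promoter sequences were not analysed here. A further short list is not reported here. With no counts on arrays, precision is limited by the 18 animals.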

Additional observations from a re-analysis of the deposited data

Results flagged for a closer look

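Among the 22 groups of 9 animals examined for a value far from the rest (11 probe sets in SIVE and in Control), 1 was found, where chance flags about 1 in 20. Control 5 had a level of 3.73 in OAS1 probe set 8482, and the gap to its nearest neighbour took 0.587 of the group's range, above the limit of 0.493. Its 2 arrays read 3.65 and 3.82. Without Control 5 the probe set remained called higher in SIVE.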

How the results depend on the processing

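The 8 OAS probe sets whose groups did not overlap kept their direction and their call under all 11 alternatives of the SIVE comparison and the 18 fits that left out 1 animal, and the count of OAS probe sets called was 8 to 10. The count over all probe sets was 2595, 2055 to 3013 with 1 animal left out, 5294 with anti-CD8 as a covariate and 1368 with the replicate number as a block, which among OAS probe sets ended the call of OAS1 8482 only (adjusted p = 0.15). Without SIVE 2, SIVE 3 and Control 8 the counts were 2512 without anti-CD8 (1652 with all animals), 205 with it (555, and 187 with age as a covariate) and 0 for anti-CD8 in SIVE (1). The animals left out were all treated, so the differences without anti-CD8 stayed the same there, and only the spread estimated in the fit changed. The causes of the other shifts were not tested, and the fits without those animals had fewer animals.

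Signs turned in values that were not called. OAS1 29236 differed by 0.13 on the first technical replicate alone. With age as a covariate the difference between the SIVE effects was 0.42 for OAS3 12018 and -0.02 for OAS1 3322. Without those 3 animals anti-CD8 in SIVE gave -0.00 for OAS3 12018, 0.10 for OAS2 8486, -0.02 for OASL and 0.05 for OAS1 3322. With the brightest virus probe set r was -0.03 for OAS1 29236, -0.08 for OAS1 3322 and -0.03 for OAS3 20819_s_at. Of 55 pairs of changes, 47 were called, and 43 and 46 on 1 technical replicate each. Dim probe sets such as OAS1 8482 and 29236 limit what small changes can be read.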

Other observations

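DTX1, which lies next to OAS2 in RefSeq's T2T-MMU8v2.0 annotation and encodes a regulator of Notch signalling, was read by 2 probe sets, and these values were looked up after the OAS results were seen. The first averaged 8.13 ± 0.57 in SIVE and 7.19 ± 0.65 in Control animals (SD, n = 9 each), a difference of 0.94 ± 0.27 (limma adjusted p = 0.0475), with 7 SIVE animals above the Control range. The second averaged 7.20 ± 0.28 in SIVE and 7.23 ± 0.28 in Control animals, a difference of -0.03 ± 0.12 (limma adjusted p = 0.92).

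Among Control animals, Control 6 was highest in OAS1 865 (7.05), OAS1 4655 (7.67), OAS3 20819_at (6.20) and OAS3 20819_s_at (6.49), and lowest in OAS3 12018 (5.78). Control 7 was lowest in OAS1 865 (6.05), OAS1 4655 (6.30), OAS2 43291 (4.30) and OAS3 20819_at (5.27).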
